A study of Mus musculus with 2 samples.

Results

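The 34 genes described here are macrophage and myeloid cell genes, taken by name from a deposited table of 23084 gene symbols, and all 34 had a row in it. The table holds RNA levels of mouse embryonic fibroblasts (MEF) of the ICR strain, cells grown out of embryos, in 2 libraries. The high mPTP opening library comes from cells sorted for dim calcein, and the low mPTP opening library from cells sorted for bright calcein. The mPTP is the mitochondrial permeability transition pore. Cells of both pools were loaded with the dye calcein and with cobalt chloride (CoCl2), which quenches the dye outside closed mitochondria, before they were sorted by flow cytometry. No knockout, drug or age is named in the labels. Each pool gave 1 library, so no difference below has a replicate check, no test was possible, and every value describes these libraries alone. The comparison asks how transcript levels differ between cells with much and with little pore opening.

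Macrophages are phagocytes of the innate immune system that also seed the tissues of the embryo, and a primary fibroblast culture can hold some of them. They sense microbes, antibodies and dying cells through pattern receptors and Fc receptors. Many of these receptors signal through small adaptor proteins that carry an ITAM, an activating motif with a pair of tyrosines. The lineage depends on the growth factor receptor Csf1r and on the transcription factor PU.1, which the gene Spi1 encodes.

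All 34 genes had a lower FPKM in the high mPTP opening library, with ratios of high to low between 0.382 for Lst1 and 0.671 for Mrc1 and a median ratio of 0.502. FPKM is the number of reads or fragments per kilobase of exon sequence, scaled by the depth of the library. The summed level of the 34 genes was 619 FPKM in the high and 1235 FPKM in the low mPTP opening library. Since this is bulk RNA, fewer macrophages in a pool and less of these RNAs in each macrophage cannot be told apart. Of the 34 genes, 33 had a mean of at least 1 FPKM over both libraries and are called measured. On the scale of log2(FPKM + 1), 29 of them were lower by at least 1.5-fold, 4 lay between and 0 were higher. Of all 11898 measured genes 4.38% were lower by that size and 1.54% were higher, and 6494 had a negative difference of any size. At 2-fold, 8 genes of the set were lower and 0 higher, beside 0.958% lower and 0.328% higher of all measured genes. The median log2 difference, high minus low, was -0.86 for the 33 measured genes and -0.02 for all measured genes.

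**Figure D1:**
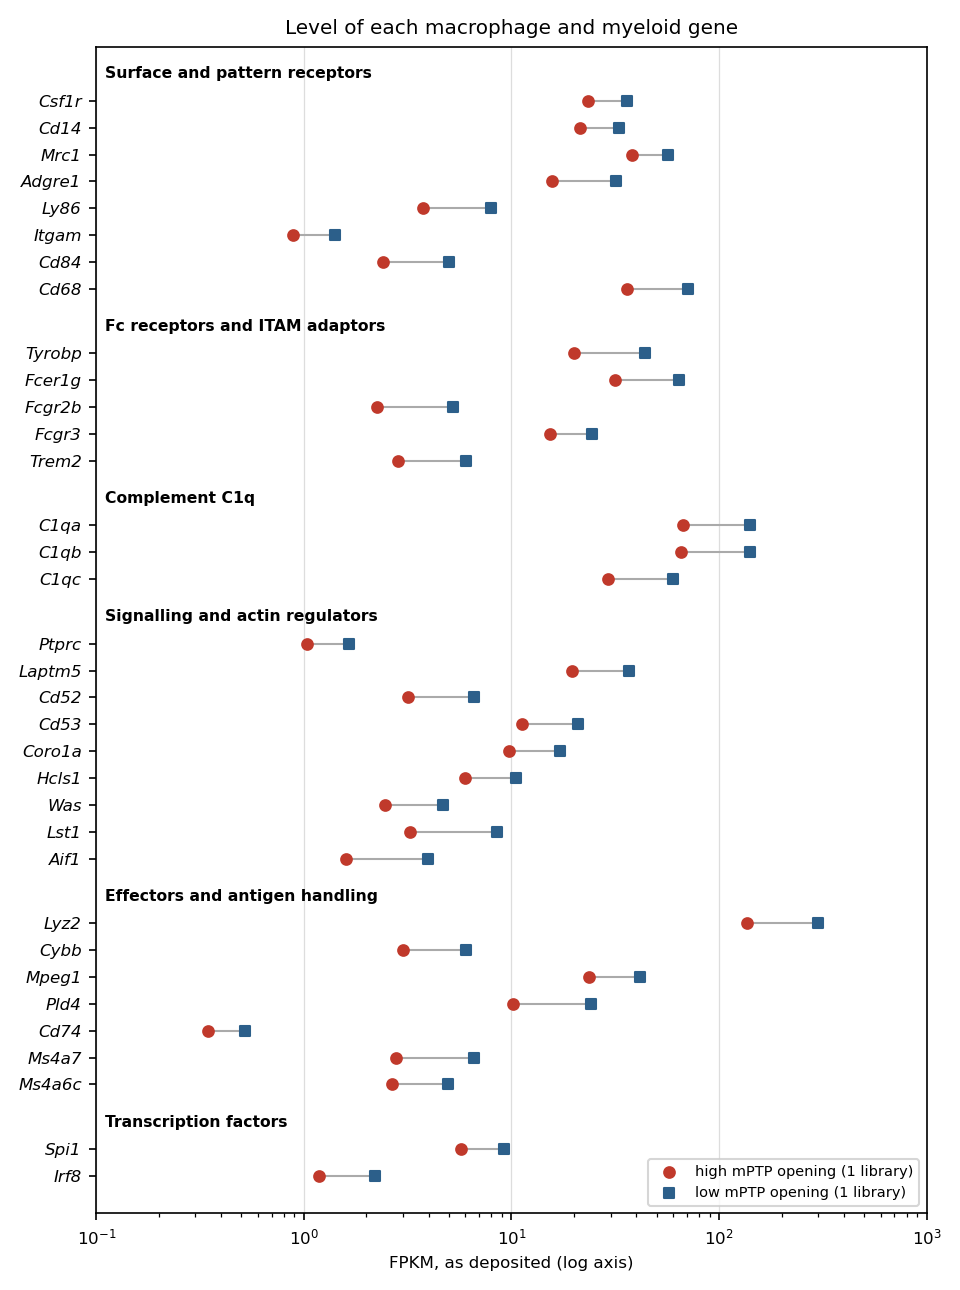
FPKM of each of the 34 genes on a log axis, grouped by role, with a circle for the high and a square for the low mPTP opening library (1 library each). In all 34 genes the circle lies left of the square, and the levels run from 0.346 FPKM (high) and 0.518 FPKM (low) for Cd74 to 136 FPKM (high) and 301 FPKM (low) for Lyz2.

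The values have a depth of 16375709 reads or fragments in the high and 15060441 in the low mPTP opening library, recovered from the steps in which FPKM values occur. At this depth 1 FPKM of a gene with 1 kb of exon is 16.4 reads in the high and 15.1 reads in the low mPTP opening library. Intervals given after a ratio are exact Clopper-Pearson intervals at 95% from these reads. They cover counting error only, and leave out the variation between cultures and sorts. For 33 of the 34 genes the interval lay wholly below 1, and for 23 it lay wholly below the ratio that corresponds to a 1.5-fold lower level. The share of all measured genes with such intervals was not computed. A gene with many reads can have an interval without 1 at a small difference. The collagen gene Col1a1 did, with a ratio of 1.047 (1.042 to 1.053). Of 14 fibroblast markers 13 were measured, which fits the labelled cell type, with Col1a1 at 3204 FPKM in the high and 3059 FPKM in the low mPTP opening library. The exception was S100a4, with 1 read in the high and 0 in the low mPTP opening library.

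Of the transcription factors, Spi1 was at 5.69 FPKM in the high and 9.24 FPKM in the low mPTP opening library, a ratio of 0.616 (0.523 to 0.724). Irf8, which directs the monocyte and dendritic cell branches, was at 1.19 FPKM in the high and 2.202 FPKM in the low mPTP opening library, a ratio of 0.538 (0.433 to 0.668). Its difference of -0.55 on the log2(FPKM + 1) scale fell short of 1.5-fold, because that scale understates differences of low genes. Both lay below the median level of the 34 genes, which was 7.85 FPKM in the high and 13.9 FPKM in the low mPTP opening library.

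PU.1 binds sites with the core GAGGAA, often within the longer GAGGAAGT. The promoter table of RefSeq (build GRCm38.p6, windows of 300 bases that end 50 bases after a start site) held 30 windows for 25 of the 34 genes. The core was found on either strand in 17 of these 30 windows, or 56.7%, and in 28.3% of all 32851 windows. Windows of 1 gene can overlap and hold the same match, as those of Fcgr3 do. By gene, the core was found in 16 of the 25, or 64%, and in 31.3% of all 27025 genes. The longer form, which contains the core, was found in 3 windows, or 10%, and in 3.2% of all windows. These are matches of letters and show no binding. Shown are the windows of 2 neighbouring C1q genes, of Cd53 and Pld4, which with C1qc are the genes holding the longer form, and of Lyz2, which had the highest level and no match. Capitals mark GAGGAA or its reverse complement TTCCTC, and each is read 5′ to 3′ on the strand of the gene.
C1qb: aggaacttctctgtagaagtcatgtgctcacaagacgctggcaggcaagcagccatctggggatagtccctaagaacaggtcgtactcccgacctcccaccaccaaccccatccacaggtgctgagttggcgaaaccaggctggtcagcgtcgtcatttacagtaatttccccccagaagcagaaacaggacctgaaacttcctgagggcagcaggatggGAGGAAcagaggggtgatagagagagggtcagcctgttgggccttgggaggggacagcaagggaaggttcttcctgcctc
C1qc: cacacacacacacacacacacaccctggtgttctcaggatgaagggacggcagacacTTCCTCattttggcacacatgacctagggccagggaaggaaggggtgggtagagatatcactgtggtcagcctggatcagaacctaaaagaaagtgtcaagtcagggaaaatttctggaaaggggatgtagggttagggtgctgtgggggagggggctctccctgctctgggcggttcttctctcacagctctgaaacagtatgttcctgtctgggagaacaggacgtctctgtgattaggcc
Cd53: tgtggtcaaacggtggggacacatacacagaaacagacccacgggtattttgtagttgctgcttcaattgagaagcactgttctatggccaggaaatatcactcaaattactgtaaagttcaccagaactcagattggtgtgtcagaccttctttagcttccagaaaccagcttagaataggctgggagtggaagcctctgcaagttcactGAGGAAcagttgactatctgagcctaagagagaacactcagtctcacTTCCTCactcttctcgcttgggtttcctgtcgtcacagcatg
Pld4: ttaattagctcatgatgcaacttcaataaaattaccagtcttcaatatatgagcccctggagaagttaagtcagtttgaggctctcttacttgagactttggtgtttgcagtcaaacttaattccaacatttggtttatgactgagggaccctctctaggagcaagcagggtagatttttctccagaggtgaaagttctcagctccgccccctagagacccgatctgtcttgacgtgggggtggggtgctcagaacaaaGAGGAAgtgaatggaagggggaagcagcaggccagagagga
Lyz2: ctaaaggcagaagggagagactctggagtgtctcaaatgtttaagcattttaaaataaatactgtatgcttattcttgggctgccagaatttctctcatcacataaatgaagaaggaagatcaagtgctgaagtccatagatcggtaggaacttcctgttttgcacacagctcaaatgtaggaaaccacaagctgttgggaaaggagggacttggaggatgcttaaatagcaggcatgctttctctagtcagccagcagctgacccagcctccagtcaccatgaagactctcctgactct

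In build GRCm38.p6 the window of C1qb is chr4:136886151-136886450 on the minus strand and that of C1qc is chr4:136892865-136893164 on the minus strand. The window of Cd53 is chr3:106790100-106790399 on the minus strand, that of Pld4 is chr12:112760405-112760704 on the plus strand, and that of Lyz2 is chr10:117282223-117282522 on the minus strand. The match in C1qb begins 30 bases before the start site, while in C1qc it begins 193 bases before it and in Pld4 9 bases after it. The 16 genes with a core match in some window had a median ratio of high to low of 0.502, and the 9 matched genes without had a median of 0.535, over ranges that overlap.

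Among the receptors, Csf1r, which binds the growth factors CSF1 and IL-34 and keeps macrophages alive, was at 23.5 FPKM in the high and 36.0 FPKM in the low mPTP opening library, a ratio of 0.652 (0.617 to 0.688). Cd14, a co-receptor for bacterial lipopolysaccharide, was at 21.4 FPKM in the high and 32.8 FPKM in the low mPTP opening library, a ratio of 0.654 (0.588 to 0.727). Mrc1, the mannose receptor, was at 37.9 FPKM in the high and 56.5 FPKM in the low mPTP opening library, a ratio of 0.671 (0.644 to 0.699). These receptors are thus among the members whose libraries lay closest together, and Mrc1 was short of 1.5-fold. Csf1r and Cd14 passed it narrowly, with log2 differences of -0.60 and -0.59, and fell short of it under each of the 4 other scalings tried, at -0.57 to -0.49 for Csf1r and -0.56 to -0.48 for Cd14. Csf1r shares 15.1% of its exon sequence with Hmgxb3 on the opposite strand.

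Other surface genes had lower ratios. Adgre1, which encodes the F4/80 antigen used to stain mouse macrophages, was at 15.6 FPKM in the high and 31.9 FPKM in the low mPTP opening library, a ratio of 0.490 (0.450 to 0.533). Cd68, a glycoprotein of macrophage lysosomes, was at 35.9 FPKM in the high and 70.5 FPKM in the low mPTP opening library, a ratio of 0.509 (0.464 to 0.557). Ly86, a secreted partner of the Toll-like receptor homologue Cd180, was at 3.74 FPKM in the high and 7.93 FPKM in the low mPTP opening library, and Cd84, a receptor of the SLAM family, at 2.41 FPKM in the high and 4.997 FPKM in the low mPTP opening library. The intervals of Adgre1 and Cd68 lay wholly below those of Csf1r and Mrc1. Itgam, the alpha chain of complement receptor 3, was at 0.887 FPKM in the high and 1.41 FPKM in the low mPTP opening library (73 reads in the high, 107 in the low). Its value is uncertain, since 68.7% of its exon sequence is shared with the overlapping gene Gm49368. The ratio of Itgam, 0.627, had a wide interval of 0.460 to 0.853.

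The ITAM adaptors Tyrobp and Fcer1g and the receptors Trem2 and Fcgr3, which use them, had ratios between 0.453 and 0.627. Tyrobp, the adaptor also called DAP12 (chromosome 7, 30413760 to 30417585), was at 19.96 FPKM in the high and 44.1 FPKM in the low mPTP opening library, a ratio of 0.453 (0.383 to 0.533). Fcer1g, the common gamma chain of Fc receptors (chromosome 1, 171229572 to 171234365), was at 31.7 FPKM in the high and 64.2 FPKM in the low mPTP opening library, a ratio of 0.493 (0.439 to 0.553). Trem2, a lipid-sensing receptor that signals through Tyrobp, was at 2.85 FPKM in the high and 6.01 FPKM in the low mPTP opening library, a ratio of 0.474 (0.403 to 0.557). Trem2 and its adaptor Tyrobp thus had nearly the same ratio. Fcgr3 and its adaptor Fcer1g did not. The ratio of Fcgr3 was 0.627 (0.554 to 0.709), and the interval of Fcer1g ended just below this interval. The higher FPKM of Tyrobp goes with its shorter exon sequence in GENCODE M21, 667 nt against 4946 nt for Trem2. In reads they were close, with 218 for Tyrobp and 231 for Trem2 in the high mPTP opening library. In the low one they had 443 and 448 reads.

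The Fc receptors themselves were less alike. Fcgr2b, the inhibitory receptor for IgG, was at 2.26 FPKM in the high and 5.25 FPKM in the low mPTP opening library, a ratio of 0.430 (0.364 to 0.507). Fcgr3, an activating receptor that needs Fcer1g, was at 15.3 FPKM in the high and 24.4 FPKM in the low mPTP opening library, a ratio of 0.627 (0.554 to 0.709). Their intervals did not overlap, with the inhibitory receptor at the lower ratio. Fc receptors are close paralogs that may share reads, so these values are uncertain to that extent. The paralog Fcgr4, between them on chromosome 1, had 12 reads in the high and 26 reads in the low mPTP opening library. Fcgr2b, Fcgr3 and Fcer1g lie within 275749 nt.

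The 3 chains of complement C1q, the molecule that recognises antibody complexes and dying cells, had ratios within a narrow range, 0.467 to 0.491. C1qa was at 66.7 FPKM in the high and 141 FPKM in the low mPTP opening library, a ratio of 0.472 (0.439 to 0.507). C1qb was at 65.8 FPKM in the high and 141 FPKM in the low mPTP opening library, a ratio of 0.467 (0.435 to 0.501). C1qc was at 29.3 FPKM in the high and 59.7 FPKM in the low mPTP opening library, a ratio of 0.491 (0.453 to 0.532). All 3 intervals overlap. The genes, whose promoters are shown above for C1qb and C1qc, lie side by side on the minus strand of chromosome 4, with C1qb at 136880129 to 136886187, C1qc at 136889804 to 136893065 and C1qa at 136895917 to 136898803 (mm10), together 18675 nt. The lower FPKM of C1qc goes with its longer exon sequence in GENCODE M21, 1931 nt against 1040 nt for C1qa and 1088 nt for C1qb. In reads the chains were closer, with 1136, 1173 and 927 reads for C1qa, C1qb and C1qc in the high mPTP opening library and 2213, 2311 and 1737 reads in the low one.

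Genes of effector function were led by Lyz2, the lysozyme of macrophages (ENSMUSG00000069516, chromosome 10, 117277334 to 117282274), at 136 FPKM in the high and 301 FPKM in the low mPTP opening library, a ratio of 0.453 (0.433 to 0.473). Its close paralog Lyz1 was listed at 0 in the high and at 0.105 FPKM in the low mPTP opening library (2 reads). Pld4, an exonuclease of endolysosomes that degrades nucleic acids, was at 10.2 FPKM in the high and 24.2 FPKM in the low mPTP opening library, a ratio of 0.420 (0.380 to 0.464). In the order of all 11898 measured genes from the lowest difference, Pld4 was at rank 65, the first of the 34. Mpeg1, a pore-forming protein that attacks engulfed bacteria, was at 23.5 FPKM in the high and 41.8 FPKM in the low mPTP opening library, a ratio of 0.563 (0.529 to 0.598). The interval of Mpeg1 lay wholly above those of Lyz2 and Pld4. Cybb, the catalytic subunit of the phagocyte oxidase, was at 2.997 FPKM in the high and 6.06 FPKM in the low mPTP opening library, a ratio of 0.495 (0.427 to 0.572).

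The MS4A genes encode membrane proteins with several spans. Ms4a7 was at 2.78 FPKM in the high and 6.62 FPKM in the low mPTP opening library, a ratio of 0.420 (0.354 to 0.498). Ms4a6c was at 2.65 FPKM in the high and 4.96 FPKM in the low mPTP opening library, a ratio of 0.535 (0.407 to 0.699), and 53.1% of its exon sequence is shared with a gene on the opposite strand. Both lie on chromosome 19, where the paralog Ms4a6d was at 12.4 FPKM in the high and 19.5 FPKM in the low mPTP opening library, and Ms4a6b at 2.57 FPKM in the high and 3.48 FPKM in the low mPTP opening library. All 4 MS4A genes were thus lower in the high mPTP opening library, and reads may be shared between them.

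Cd74, the invariant chain that guards class II MHC molecules, was the 1 gene of the set that was not measured. It was at 0.346 FPKM in the high and 0.518 FPKM in the low mPTP opening library, from 10 reads in the high and 13 reads in the low, and its interval of 0.278 to 1.75 holds 1, so these reads cannot show a difference. Class II genes were also near 0. Their highest level was that of H2-DMa, at 2.31 FPKM in the high and 2.63 FPKM in the low mPTP opening library, and H2-Aa was listed at 0 in the high and at 0.142 FPKM in the low one. All 9 had a lower FPKM in the high mPTP opening library, but 1 was measured and 0 were lower by 1.5-fold or more.

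The leukocyte signalling and actin genes included 8 of 9 that were lower by 1.5-fold or more. Ptprc, the phosphatase CD45 found on all white blood cells, was the exception, at 1.03 FPKM in the high and 1.66 FPKM in the low mPTP opening library, a ratio of 0.624 (0.538 to 0.722). Its difference of -0.39 fell short of 1.5-fold on the log2(FPKM + 1) scale, which understates differences of low genes. The annotated exons of Ptprc sum to 18313 nt, which lowers its FPKM. It had 310 reads in the high and 457 reads in the low mPTP opening library. Laptm5, a lysosomal membrane protein of blood cells, was at 19.6 FPKM in the high and 36.9 FPKM in the low mPTP opening library, a ratio of 0.532 (0.495 to 0.571). Cd53, a tetraspanin of leukocytes, was at 11.2 FPKM in the high and 20.9 FPKM in the low mPTP opening library. Coro1a, a coronin that organises leukocyte actin, was at 9.72 FPKM in the high and 17.2 FPKM in the low mPTP opening library, a ratio of 0.566 (0.502 to 0.638). The actin regulators Hcls1 and Was, of which Was is mutated in Wiskott-Aldrich syndrome in humans, had ratios of 0.565 and 0.526. The intervals of the other 8 genes of this group overlap that of Laptm5.

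The short genes of this group had the lowest ratios and the fewest reads. Lst1, a leukocyte membrane protein, was at 3.24 FPKM in the high and 8.48 FPKM in the low mPTP opening library (22 reads in the high, 53 in the low), a ratio of 0.382 (0.221 to 0.639). Aif1, the calcium-binding protein Iba1 used to stain microglia, was at 1.59 FPKM in the high and 3.94 FPKM in the low mPTP opening library (40 reads in the high, 91 in the low), a ratio of 0.404 (0.272 to 0.593). Both lie within 17449 nt of chromosome 17. Cd52, a small surface glycoprotein of leukocytes, was at 3.19 FPKM in the high and 6.60 FPKM in the low mPTP opening library (62 reads in the high, 118 in the low), a ratio of 0.483 (0.349 to 0.663). These intervals are wide enough to hold the ratios of most other genes of the set. Cd52 shares 14.5% of its exon sequence with Crybg2 on the opposite strand.

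**Figure D2:**
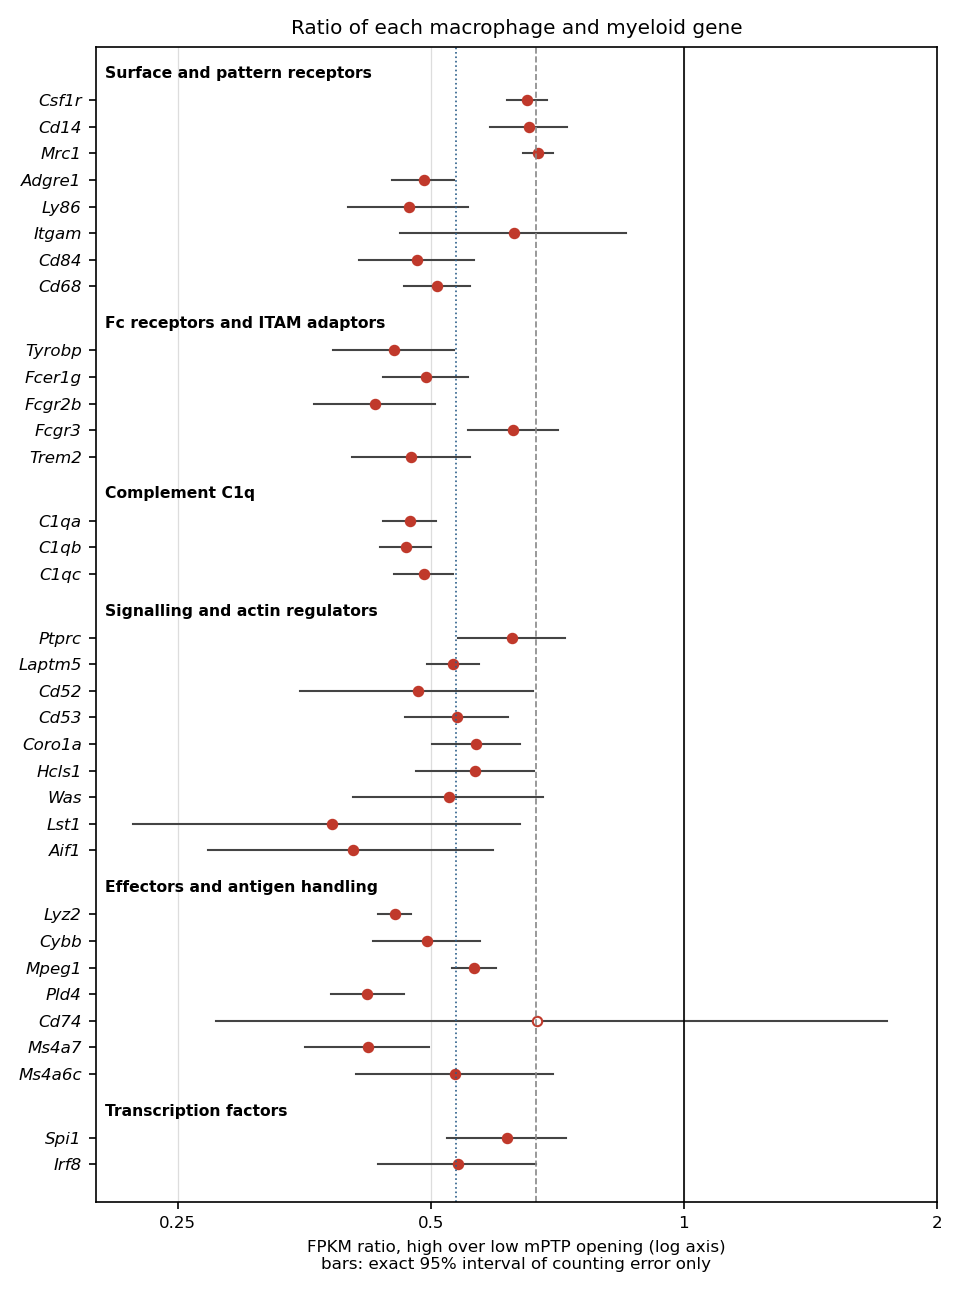
Ratio of FPKM, high over low mPTP opening, of each gene on a log axis, with bars for the exact 95% interval of counting error. The solid line marks 1, the dashed line a 1.5-fold lower level and the dotted line the ratio of the summed reads of all 34 genes (0.536), and the open circle is Cd74, which was not measured.

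The genes did not all share the same ratio within counting error. The ratio of their summed reads was 0.536, and 20 of the 34 intervals held it. The intervals of 9 genes lay below it, namely Adgre1, Tyrobp, Fcgr2b, C1qa, C1qb, C1qc, Lyz2, Pld4 and Ms4a7. Those of 5 genes lay above it, namely Csf1r, Cd14, Mrc1, Fcgr3 and Ptprc. The ratio had little relation to the level, with a Spearman correlation of -0.08 across the 34 genes, which share their libraries and are not independent. The order of levels was nearly the same in both libraries (Spearman correlation 0.990). Over the roles, the median log2 difference was -1.07 for the C1q chains, -0.94 for the Fc receptors and adaptors, -0.92 for the 6 measured effector genes, -0.84 for the signalling and actin genes, -0.71 for the surface receptors and -0.58 for the transcription factors.

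**Figure D3:**
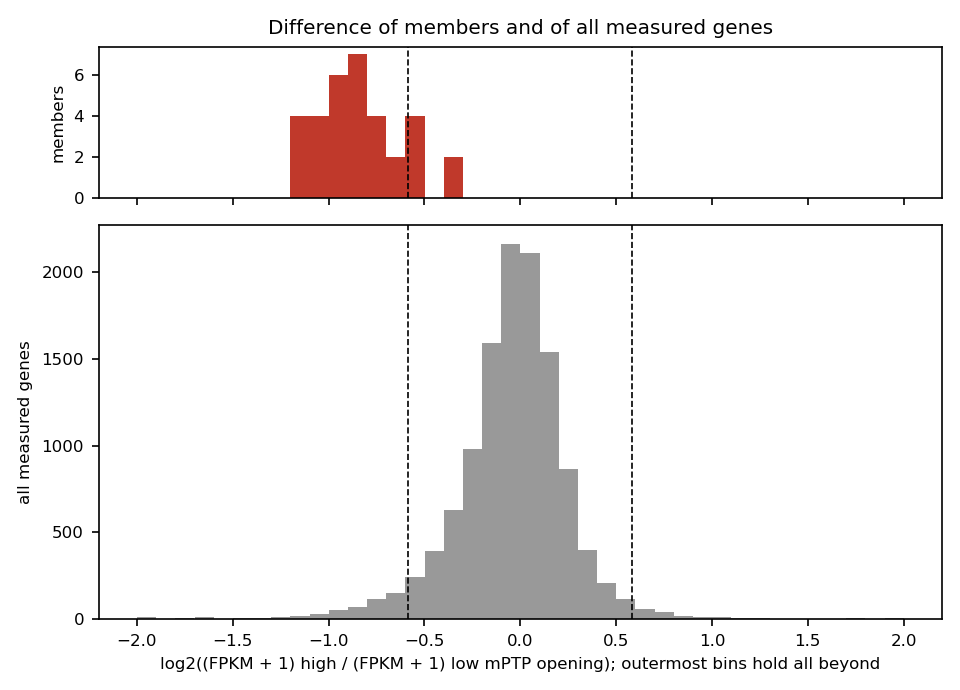
Histograms of the log2((FPKM + 1)) difference, high minus low mPTP opening, for the 33 measured genes of the set (top) and all 11898 measured genes (bottom), with dashed lines at 1.5-fold. The genes of the set lie between -1.17 and -0.36, to the left of most genes, whose median is -0.02.

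The set makes up 33 of the 11898 measured genes. Of the 200 measured genes with the lowest differences 17 belonged to the set, and of the lowest 500 it was 28. The 29 genes lower by 1.5-fold or more are 87.9% of the 33 measured genes of the set and 5.57% of the 521 measured genes called lower in all.

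Macrophage genes outside the set were mostly lower in the high mPTP opening library as well, with medians nearer 0. Of 34 further macrophage receptors 20 were measured, 10 of them lower by 1.5-fold or more and 0 higher, with a median log2 difference of -0.61. Sirpa, which binds the signal CD47 on other cells, was at 24.5 FPKM in the high and 41.5 FPKM in the low mPTP opening library. The lectins Clec4n and Clec4d had the lowest differences of the list. Clec4n, or dectin-2, was at 0.817 FPKM in the high and 4.77 FPKM in the low mPTP opening library (19 reads in the high, 102 in the low), a ratio of 0.171 (0.0991 to 0.281). Clec4d was at 2.33 FPKM in the high and 6.94 FPKM in the low mPTP opening library, a ratio of 0.336 (0.246 to 0.453). The interval of Clec4n lay below those of all measured genes of the set apart from Lst1 and Aif1. Cd36, a scavenger receptor that other cell types also make, was at 9.05 FPKM in the high and 17.3 FPKM in the low mPTP opening library, and Cd33 at 1.05 FPKM in the high and 2.55 FPKM in the low mPTP opening library.

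Signalling genes of the same pathways followed. Of 26 genes of ITAM and CSF1R signalling 23 were measured, with 11 lower by 1.5-fold or more, 0 higher and a median of -0.56. The largest differences were those of Dok3, an inhibitory docking protein, at 1.62 FPKM in the high and 3.74 FPKM in the low mPTP opening library, and of the leukocyte GTPase Rac2, at 5.95 FPKM in the high and 10.7 FPKM in the low mPTP opening library. Nckap1l, an actin regulator of blood cells, was at 9.68 FPKM in the high and 16.7 FPKM in the low mPTP opening library, and Pik3r5, a kinase subunit, at 1.19 FPKM in the high and 2.49 FPKM in the low mPTP opening library. Csf1, a ligand of Csf1r, which fibroblasts secrete, was on the other side, at 29.2 FPKM in the high and 24.7 FPKM in the low mPTP opening library, a ratio of 1.18 (1.12 to 1.26). It was short of 1.5-fold. The other ligand, Il34, was at 0.779 FPKM in the high and 1.36 FPKM in the low mPTP opening library (25 reads in the high, 40 in the low), a ratio of 0.575 (0.334 to 0.971), and was also short of 1.5-fold on the log2(FPKM + 1) scale.

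Toll-like receptors and their co-receptors had 11 of 14 measured, 2 lower by 1.5-fold or more, 0 higher and a median of -0.43. Unc93b1, which carries these receptors to endosomes, was at 9.24 FPKM in the high and 18.4 FPKM in the low mPTP opening library. Tlr7, a sensor of single-stranded RNA, was at 3.98 FPKM in the high and 7.25 FPKM in the low mPTP opening library. Tlr8 and Tlr13 were short of 1.5-fold on the log2(FPKM + 1) scale, with differences of -0.58 and -0.52. Their plain FPKM ratios, 0.543 and 0.661, were beyond that size. The phagocyte oxidase partners of Cybb had a median of -0.52, with Ncf4, at 3.96 FPKM in the high and 6.77 FPKM in the low mPTP opening library, the 1 of 3 that was lower by 1.5-fold or more. Ncf1 had a plain ratio of 0.650 but was short of 1.5-fold on the log2(FPKM + 1) scale. Cyba had a ratio of 0.765 and is also made by other cell types.

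Of 13 further myeloid transcription factors 7 were measured, with 3 lower by 1.5-fold or more, 0 higher and a median of -0.44. Maf, a factor of mature macrophages, was at 7.88 FPKM in the high and 13.6 FPKM in the low mPTP opening library, Cebpa at 2.78 FPKM in the high and 5.31 FPKM in the low, and Cebpb at 1.58 FPKM in the high and 2.91 FPKM in the low. Irf5, a factor downstream of Toll-like receptors, was short of 1.5-fold, at 3.70 FPKM in the high and 5.37 FPKM in the low mPTP opening library. Runx1 and Fli1, which blood progenitors and other cells use, had ratios of 0.977 and 0.951.

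**Figure D4:**
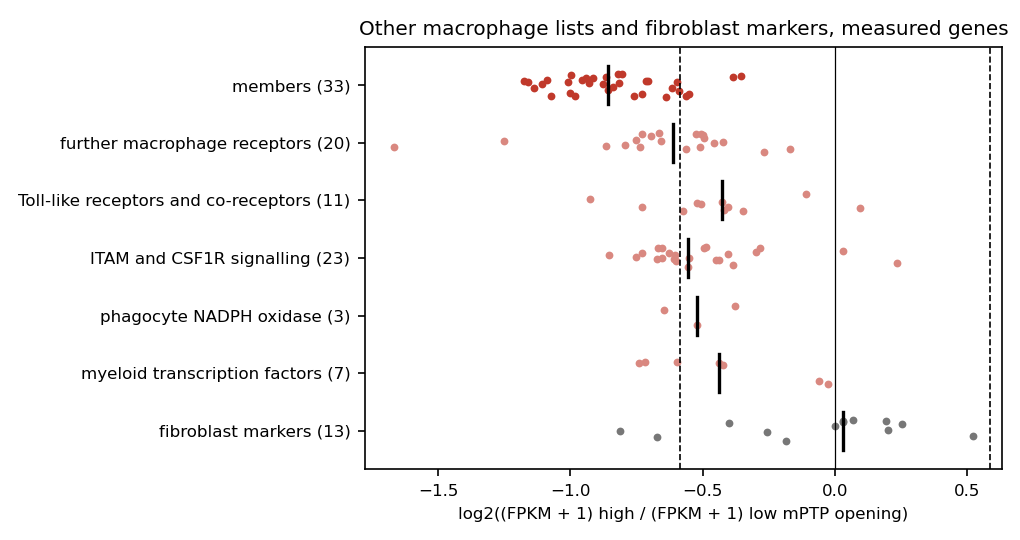
Log2((FPKM + 1)) difference, high minus low mPTP opening, of each measured gene of the set, of 5 other macrophage lists and of fibroblast markers, with bars at the medians and dashed lines at 1.5-fold; the number of genes stands beside each name. Medians of the macrophage lists lie between -0.86 and -0.43, and that of the fibroblast markers is 0.03.

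Markers of other blood cells were mostly near 0 in both libraries. This bears on the name of the set, since genes such as Ptprc, Cd52 and Coro1a are also made by other leukocytes. None of 6 NK cell markers had a row. Of 10 T cell markers 5 had a row and 0 were measured, and the highest was the kinase gene Lck, at 0.980 FPKM in the high and 0.884 FPKM in the low mPTP opening library. Of 8 B cell markers 1 was measured, Ebf1, at 3.82 FPKM in the high and 4.29 FPKM in the low mPTP opening library, which mesenchymal cells also express. Of 12 neutrophil markers 0 were measured, and the highest was the receptor gene Csf3r, at 0.237 FPKM in the high and 0.626 FPKM in the low mPTP opening library. None of 8 dendritic cell markers was measured, with Zbtb46 the highest, at 0.711 FPKM in the high and 0.757 FPKM in the low mPTP opening library. The macrophage genes Adgre1, Csf1r, Cd68 and C1qa were at 15.6 FPKM or more in both libraries. Others of the set, such as Itgam, Aif1 and Irf8, lay below the level of Ebf1 in both.

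**Figure D5:**
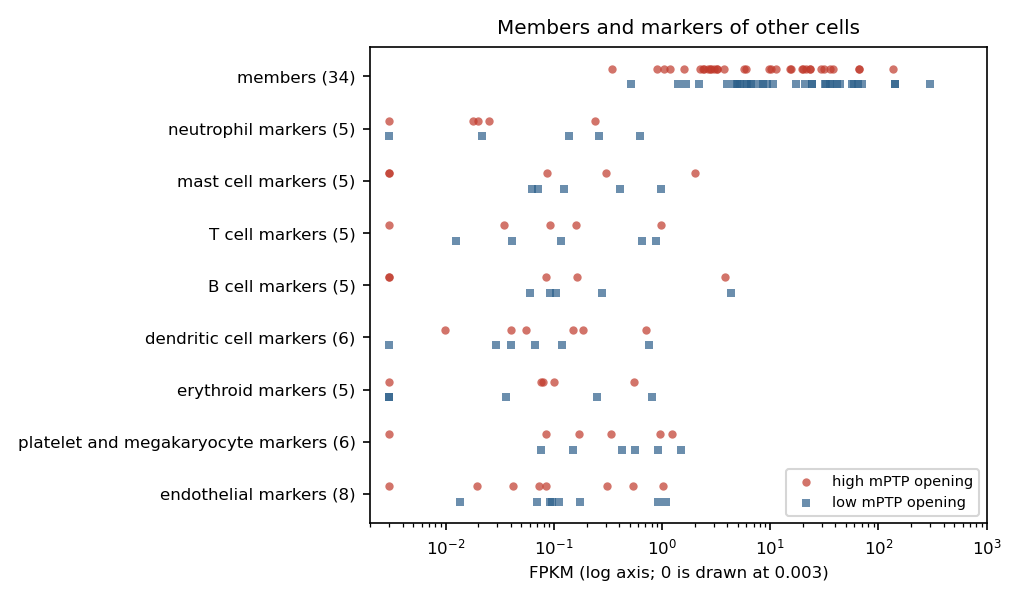
FPKM on a log axis of the 34 genes and of marker genes of 8 other cell types that have a row in the table, with circles for the high and squares for the low mPTP opening library (1 library each) and 0 drawn at the left edge. Markers of the other cell types reach at most 4.29 FPKM (Ebf1), while 16 genes of the set in the high and 18 in the low mPTP opening library have 10 FPKM or more.

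Fibroblast markers did not move as a group. Of 14 markers 13 were measured, 2 were lower by 1.5-fold or more and 0 higher, with a median of 0.03 and a summed level of 7560 FPKM in the high and 7663 FPKM in the low mPTP opening library. The 2 lower genes were the proteoglycans Dcn, at 98.9 FPKM in the high and 175 FPKM in the low mPTP opening library, and Lum, at 91.6 FPKM in the high and 147 FPKM in the low mPTP opening library. Thy1 was at 81.7 FPKM in the high and 56.6 FPKM in the low mPTP opening library, and Col3a1 at 711 FPKM in the high and 939 FPKM in the low mPTP opening library. Their part in the differences of the macrophage genes was not tested.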

How the data were processed

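Per the labels' protocols, RNA extracted in TRIzol went into Illumina TruSeq libraries. A single table of FPKM values was deposited by the authors, with 1 column per library, matched to the samples by name. The submitters' processing notes list TopHat2 2.0.12, Bowtie2 2.2.3 and build mm10. How reads were counted, with which annotation and strand setting, is not given in the sources used here, so overlapping genes and close paralogs may share reads. Each library is 1 sorted pool.

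FPKM times the union exon length in GENCODE M21 came in whole steps, within 0.05 reads, for 93.4% of high and 93.1% of low mPTP opening genes with up to 20 reads (85.5% and 85.7% of all genes), which gave the denominators and reads. Reads of Ly86 and Cd74 were rounded, so their intervals are approximate. Rows of 1 symbol were added. Differences are log2((high + 1)/(low + 1)), with a pseudocount of 1 FPKM, measured genes have a mean of at least 1 FPKM, and called genes differ by 1.5-fold or more. No test was run, as each group has 1 library.

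The members and lists were chosen with earlier results of these data known. All 34 members are named, and of each other list up to 4 measured genes with the largest differences, or else the gene with the highest FPKM. Sirpa, Csf1, Il34, Runx1, Fli1, H2-Aa, Col1a1 and S100a4 were added after their values were seen. Lists of osteoclast, mast cell, erythroid, platelet and endothelial markers are in the closing section. Some genes of the other lists are not reported here. Promoter windows are from RefSeq. Scripts were tested on simulated data. Alternatives were other pseudocounts, scalings, filters and sizes, the highest row of a symbol, and leaving out 5 genes with paralogs. The software was SciPy 1.17.1, pandas 2.3.3, NumPy 2.4.6, matplotlib 3.10.9 and Python 3.11.15.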

Additional observations from a re-analysis of the deposited data

How the results depend on the processing

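The count of 29 lower genes of the set, and 0 higher, was recomputed under 13 alternatives, 1 of them chosen after seeing the data. It was 14 of 33 when the pseudocount was raised to 5 FPKM and 8 of 33 at a size of 2-fold. Under the others it was between 20 and 32, but the number of genes measured also changed. It was 20 of 21 at a mean of at least 5 FPKM, 24 of 28 without the genes with paralogs and 26 of 34 under both scalings to a common sum. Under any of them 0 genes of the set were higher. Each of the 34 differences was negative under every pseudocount and scaling tried. Csf1r and Cd14 were short of 1.5-fold under all 4 scalings, and Spi1 and Fcgr3 under both scalings to a common sum. The median of -0.86 was -0.99 when the pseudocount was 0.1 FPKM, -0.53 when it was 5 FPKM, -1.02 for plain FPKM ratios (chosen after seeing the data), -0.83 with a trimmed mean scaling and -0.91 at a mean of at least 5 FPKM.

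Over all 11898 measured genes the 521 lower and 183 higher became 880 and 323 at a pseudocount of 0.1 FPKM and 141 and 48 at 5 FPKM. They became 931 and 343 for plain ratios, and 114 and 39 at 2-fold. Other settings also changed how many genes were measured. After scaling to a sum of 1000000, 14741 genes were measured, 1074 of them lower and 787 higher. After that scaling without mitochondrially encoded genes it was 14926, with 1134 lower and 824 higher. At a mean of at least 5 FPKM it was 7324, with 213 lower and 92 higher, and with no filter 23084, with 826 lower and 381 higher. Scaling to a common sum raises every log2 ratio by 0.12. Since the deposited sums are 290645 and 316758 FPKM in the high and low mPTP opening libraries, it also shrinks the weight of the pseudocount. More genes then reach a mean of 1 FPKM. The median of the endothelial markers turned to 0.010 and 0.0070 under the sum scalings with and without mitochondrially encoded genes. It rested on 1 gene as reported and on 3 genes under these scalings. That of the mast cell markers turned to -0.087 with no filter, where it rested on 5 genes instead of 1. These medians thus compare different sets of genes. No paired analysis was possible because each group has 1 library. Genes with few reads, such as Lst1, Aif1, Itgam and Cd74, have wide intervals that overlap those of most other genes of the set.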

Other observations

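Specialised and tissue-resident macrophage genes differed in level. The resident macrophage receptors Cx3cr1, Mertk and Siglec1 were measured and short of 1.5-fold on the log2(FPKM + 1) scale. Cx3cr1 was at 9.08 FPKM in the high and 12.5 FPKM in the low mPTP opening library. Mertk was at 5.18 FPKM in the high and 7.81 FPKM in the low, and Siglec1 at 2.197 FPKM in the high and 3.50 FPKM in the low. The plain FPKM ratios of Mertk and Siglec1, 0.664 and 0.627, were beyond that size, and that of Cx3cr1, 0.726, was not. Cd163 had 9 reads in the high and 13 in the low mPTP opening library, Timd4 had 2 in the high and 1 in the low, and the dendritic cell integrin gene Itgax had 0 in the high and 2 in the low. Vsig4, a complement receptor of resident macrophages with a mean under 1 FPKM, had 3 reads in the high and 33 reads in the low mPTP opening library, a ratio of 0.0836 (0.0164 to 0.267). These genes were picked after their values were seen.

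Of 8 osteoclast markers 2 were measured, with a median log2 difference of -0.15. The protease gene Ctsk was at 36.3 FPKM in the high and 46.7 FPKM in the low mPTP opening library and is also made by fibroblasts, while Mmp9 was at 2.31 FPKM in the high and 2.195 FPKM in the low. Of 8 mast cell markers 1 was measured, the transcription factor gene Gata2, at 2.002 FPKM in the high and 0.984 FPKM in the low mPTP opening library, a ratio of 2.03 (1.55 to 2.68) and a log2 difference of 0.60. The mast cell genes Cpa3, Mcpt4 and Tpsb2 had no row. Of 12 erythroid markers 0 were measured, with Epor the highest, at 0.553 FPKM in the high and 0.801 FPKM in the low mPTP opening library. Platelet markers had 1 of 7 measured, Gp1bb, at 1.23 FPKM in the high and 1.48 FPKM in the low mPTP opening library, and endothelial markers 1 of 8, Kdr, at 1.01 FPKM in the high and 1.09 FPKM in the low. Their log2 differences were -0.15 for Gp1bb and -0.057 for Kdr.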
